A study of Homo sapiens with 6 samples.

Results

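The cytosolic initiation and elongation factors are the proteins that place a ribosome on the start codon of an mRNA and then move it along the coding sequence (CDS). They were taken from a table of ribosome footprints in K562, a human chronic myelogenous leukemia cell line with erythroid features, as every gene whose symbol begins with EIF and a digit, with EEF1A1, EEF1A2, EEF1B2, EEF1D, EEF1G, EEF2, EEF2K, PABPC1 and PABPC4 added. The rule used gene names and no measured value. It found 63 of the 19330 listed genes. EIF4G2 and EIF4G3 were not analysed here.

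Ribosome profiling (Ribo-Seq) sequences the mRNA fragments that ribosomes shield from a nuclease, so a footprint count measures ribosome occupancy. All cells received a lentiviral CRISPR/Cas9 vector (pLentiCRISPRv2), underwent 48 h of puromycin selection and were harvested 10 days after infection. The sgCtrl group (3 libraries) carried guides against olfactory receptor genes and the sgN6AMT1 group (3 libraries) guides against N6AMT1, which encodes a methyltransferase of the translation release factor eRF1; each library came from its own infection, and which guide it carried is not given in the labels. No cloning step is described for the transduced cells, and in such bulk cultures a change in some cells and a smaller change in all cells cannot be told apart. Footprints follow mRNA abundance as well as translation, and RNA levels were not analysed here.

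The libraries held between 1821356 and 2969736 counts. Footprints on N6AMT1 itself numbered 25, 24 and 34 in the sgCtrl libraries against 10, 9 and 8 after its depletion, and the log2 fold change (sgN6AMT1 over sgCtrl throughout) was -1.51 ± 0.31 (SE, adjusted p = 6.69e-05, edgeR). The 9 erythroid markers checked were present in all libraries, led by the fetal globin HBG2 at 9517 or more CPM (counts scaled to a common library size). Without overlap between the groups, HBE1 (3313 to 3735 CPM in sgCtrl, 4978 to 5097 CPM in sgN6AMT1) and TAL1 (38.5 to 43.3 and 54.0 to 61.5 CPM) were higher in sgN6AMT1, and GATA1 (293 to 316 and 242 to 273 CPM) and TFRC (1864 to 1976 and 1525 to 1627 CPM) were lower. The other 5 overlapped, the 9 summed to 26732 to 28072 CPM in sgCtrl and 28126 to 29008 CPM in sgN6AMT1, and their part in the results below was not tested. Of the lymphoid and monocyte markers given here, MS4A1, CD14 and FCN1 were at 0 in all 6 libraries and CD3E never exceeded 1.35 CPM, whereas CD3D had 28.0 to 38.0 CPM.

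Initiation begins when EIF2, a GTPase, brings the initiator tRNA to the small ribosomal subunit, where EIF1, EIF1A, EIF3 and EIF5 join it. The EIF4 group recruits this complex to the mRNA cap, EIF5B joins the large subunit, and EIF2B reloads EIF2 with GTP, a step blocked when stress kinases phosphorylate EIF2. EEF1A then delivers aminoacyl-tRNA and EEF2 translocates the ribosome. Many mRNAs of this machinery begin with a run of pyrimidines, the TOP motif, through which the kinase mTORC1 controls their translation, and EIF1 and EIF5 are known for start regions that tune their own synthesis.

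The sequences around annotated starts below are examples with and without such features. The first set gives 10 bases before and 20 bases from the annotated RefSeq transcription start (GRCh38.p14), with the pyrimidine run that begins at the start in capitals.
EEF1A1, chr6:73521013-73521042, minus strand: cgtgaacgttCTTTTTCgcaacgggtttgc
EEF2, chr19:3985444-3985473, minus strand: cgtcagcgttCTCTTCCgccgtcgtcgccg
EEF1B2, chr2:206159885-206159914, plus strand: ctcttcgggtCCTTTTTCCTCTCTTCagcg
EIF3K, chr19:38619178-38619207, plus strand: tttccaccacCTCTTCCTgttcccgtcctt
EIF4A2, chr3:186783567-186783596, plus strand: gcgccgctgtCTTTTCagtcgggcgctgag
EIF2S3, chrX:24054946-24054975, plus strand: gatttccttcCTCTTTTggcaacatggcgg
EIF2B3, chr1:44986576-44986605, minus strand: gctgtcagtcagaggcggcgtggagatcgc
EIF1B, chr3:40309697-40309726, plus strand: cattttgtgcgagaagccgcagcgccgcct
The first 6 of these genes fell in sgN6AMT1 and hold a run, EIF2B3 fell without one, and EIF1B rose without one. These are examples only. Not shown are EIF3F and EIF3M, which hold a run and fell, and EIF2A, EIF2D, EIF3D and EIF4B, which hold a run and did not pass. Of 34 tested factors with a RefSeq start and no run, 12 fell. A run was a C followed by at least 4 bases that were each C or T, beginning at the annotated first base and read on the transcribed strand only. A gene with several annotated starts was counted when any of them had a run. On that basis a run was found for 12 of the 49 factors with a RefSeq start (24.5%) and for 5.14% of the 27305 genes in the RefSeq table. EEF1B2 has another annotated start without a run, and the listed transcripts of EEF1B2 and EEF1A1 do not begin at the starts printed here. An annotated start may differ from the start used in K562.

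The second set gives the 6 bases before the start codon, the ATG in capitals and the 3 bases after it, from GENCODE release 44 on GRCh38, for EIF5, EIF2AK1 and EIF1B, which rose, for EIF1 as the paralog of EIF1B, and for EEF1A1 and EEF2, which fell, as a contrast. EIF4EBP1, which also rose, is not shown.
EIF1: tatcgtATGtcc
EIF1B: tatcgcATGtcc
EIF5: gccaaaATGtct
EIF2AK1: ccggcgATGcag
EEF1A1: gccaaaATGgga
EEF2: gccaccATGgtg
EIF1 and EIF1B have neither a purine 3 bases before the ATG nor a G right after it, the features of a strong start context. Of 57 factors with an annotated CDS, 4 lack both (7.02%), the others being EIF3B and EIF4E1B, beside 7.36% of 16913 listed transcripts. EIF3B fell, and EIF4E1B was not tested. EIF5 and EIF2AK1 have the purine but no G, and so do EIF1AX, EIF4A1, EIF4A2 and PABPC4, which fell. Whether context goes with the direction of change was not tested. The listed EIF5 transcript has 18 ATGs in a 5′ leader of 912 bases, the most among the factors, and EIF2S1 has 15 in 760 bases. Neither of these listed transcripts begins at an annotated RefSeq start of its gene, so the leaders used in K562 may differ. At least 1 upstream ATG was found in 15 of the 57 factors (26.3%) and in 44.5% of 17009 listed transcripts.

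In sgN6AMT1 cells, footprints fell on 28 of the 60 factors that could be tested and rose on 4, with edgeR's quasi-likelihood test at an adjusted p of 0.05. The other 28 did not pass. Those that fell include EIF3C and EIF3CL, and EIF2S3 and EIF2S3L, counted separately although the genes of each pair could share reads. With near-identical copies summed, 56 factors were tested and none of them changed its call. Across all 9202 genes tested, 13.9% fell and 12.9% rose, while among the factors the shares were 46.7% and 6.67%. The median log2 fold change was -0.18 over the tested factors and 0.01 over all genes, and 50 of the 60 values were below 0. EIF4E1B, EIF4E3 and EIF4EBP3 had at most 2 counts in any library and were not tested.

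Abundant genes fell more often in these libraries, and the factors are abundant. Among the 2058 genes with a mean of at least 100 CPM, 32.0% fell and 16.9% rose, and of the 44 factors in that range 27 fell and 3 rose. The median log2 fold change was -0.19 over these factors and -0.06 over all genes of that range. The 3 sgN6AMT1 libraries lay below all 3 sgCtrl libraries for 34 of the 60 factors and above them for 5, beside 19.2% and 18.4% of all genes. DESeq2 called 23 factors lower and 3 higher, beside 8.30% and 7.35% of all genes.

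**Figure D1:**
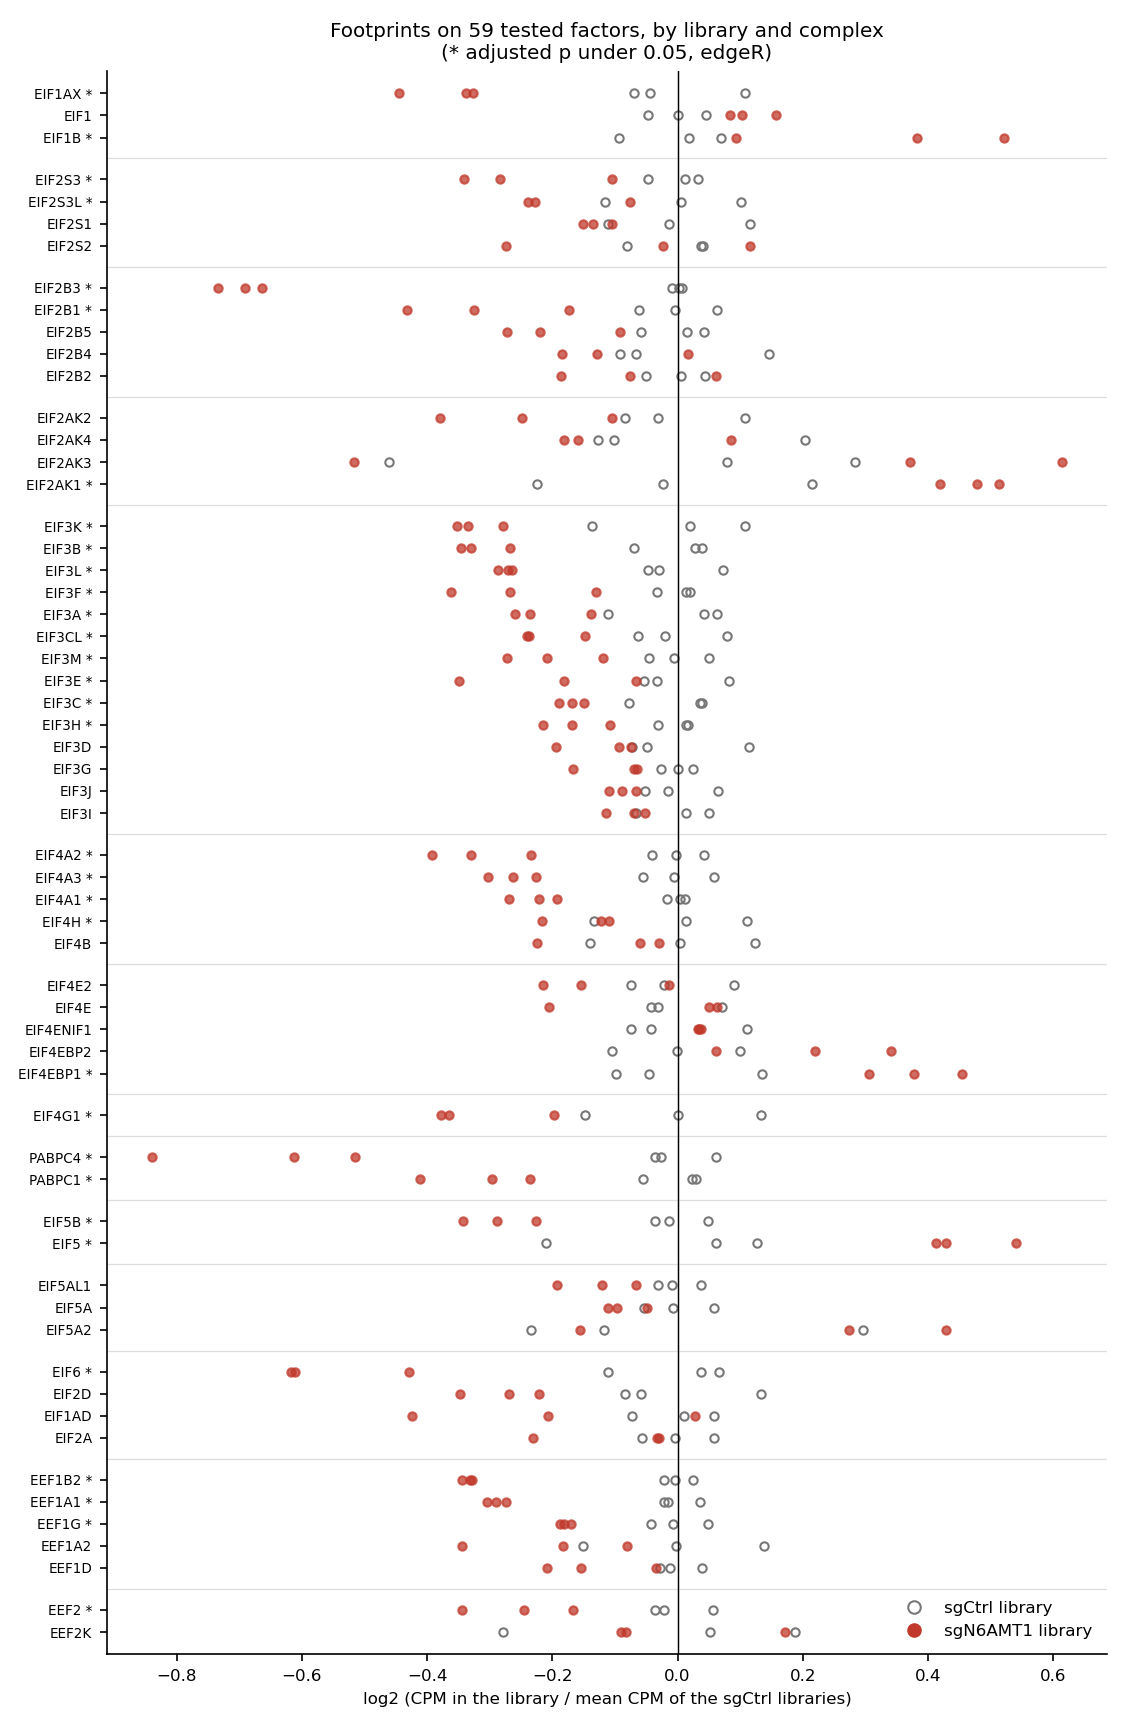
Log2 ratio of each library's CPM to the mean of the sgCtrl libraries (x axis) for 59 tested factors (rows, grouped by complex). Open circles are sgCtrl and filled circles sgN6AMT1 libraries, asterisks mark adjusted p under 0.05 (edgeR), and EIF1AY is not drawn; most filled circles lie left of 0, and those of EIF5, EIF2AK1, EIF4EBP1 and EIF1B lie right of it.

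The factors took 3.44, 3.45 and 3.40% of all counts in sgCtrl and 3.07, 3.05 and 3.02% in sgN6AMT1. The groups did not overlap, and the share was 3.43% ± 0.03 (SD, n = 3) against 3.05% ± 0.02. EEF1A1 alone took 1.26% ± 0.03 and 1.07% ± 0.01, and the other 62 factors 2.17% ± 0.02 and 1.98% ± 0.01. The share was lower in sgN6AMT1 with and without EEF1A1.

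**Figure D2:**
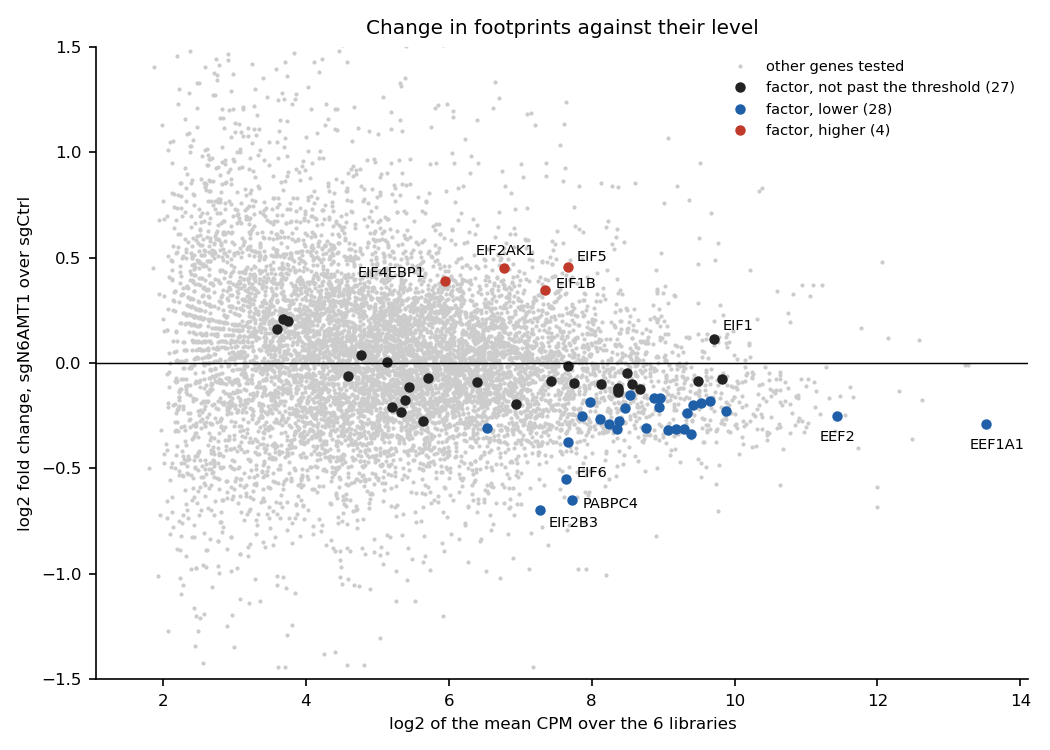
Log2 fold change (y axis, sgN6AMT1 over sgCtrl, drawn from -1.5 to 1.5) against the log2 of the mean CPM over the 6 libraries (x axis), with other genes in gray, factors that fell in blue, factors that rose in red and the remaining factors in black (EIF1AY not drawn). The blue points lie mainly in the abundant range, from EIF2B3, the lowest of the factors, to EEF1A1, the most abundant.

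The 4 factors that rose act at different steps. EIF5, the GTPase-activating protein of EIF2 at the start codon, had 149, 188 and 179 CPM in sgCtrl and 250.3, 232 and 229 CPM in sgN6AMT1. Every sgN6AMT1 library was above every sgCtrl library, and the log2 fold change was 0.45 ± 0.07 (SE, adjusted p = 2.07e-07), a 1.37-fold rise. EIF2AK1 (HRI), the heme-regulated kinase that phosphorylates EIF2, had 78.9, 107 and 90.7 CPM in sgCtrl and 131, 128 and 123 CPM in sgN6AMT1. The groups were again apart, and its log2 fold change was 0.45 ± 0.09 (adjusted p = 4.65e-05). EIF1B, a close paralog of the start codon gatekeeper EIF1, had 135, 151 and 145 CPM in sgCtrl and 206, 187 and 153 CPM in sgN6AMT1. Its lowest sgN6AMT1 library lay just above the highest sgCtrl library, and the log2 fold change was 0.35 ± 0.08 (adjusted p = 3.70e-04). EIF4EBP1, which holds the cap-binding protein EIF4E inactive, had 52.2, 50.3 and 59.2 CPM in sgCtrl and 66.6, 73.9 and 70.0 CPM in sgN6AMT1. The log2 fold change was 0.39 ± 0.11 (adjusted p = 0.00575), but the adjusted p was 0.0563 in DESeq2, 0.0601 without sgCtrl replicate 2 and 0.0697 with trends on CDS length and GC content removed.

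**Figure D3:**
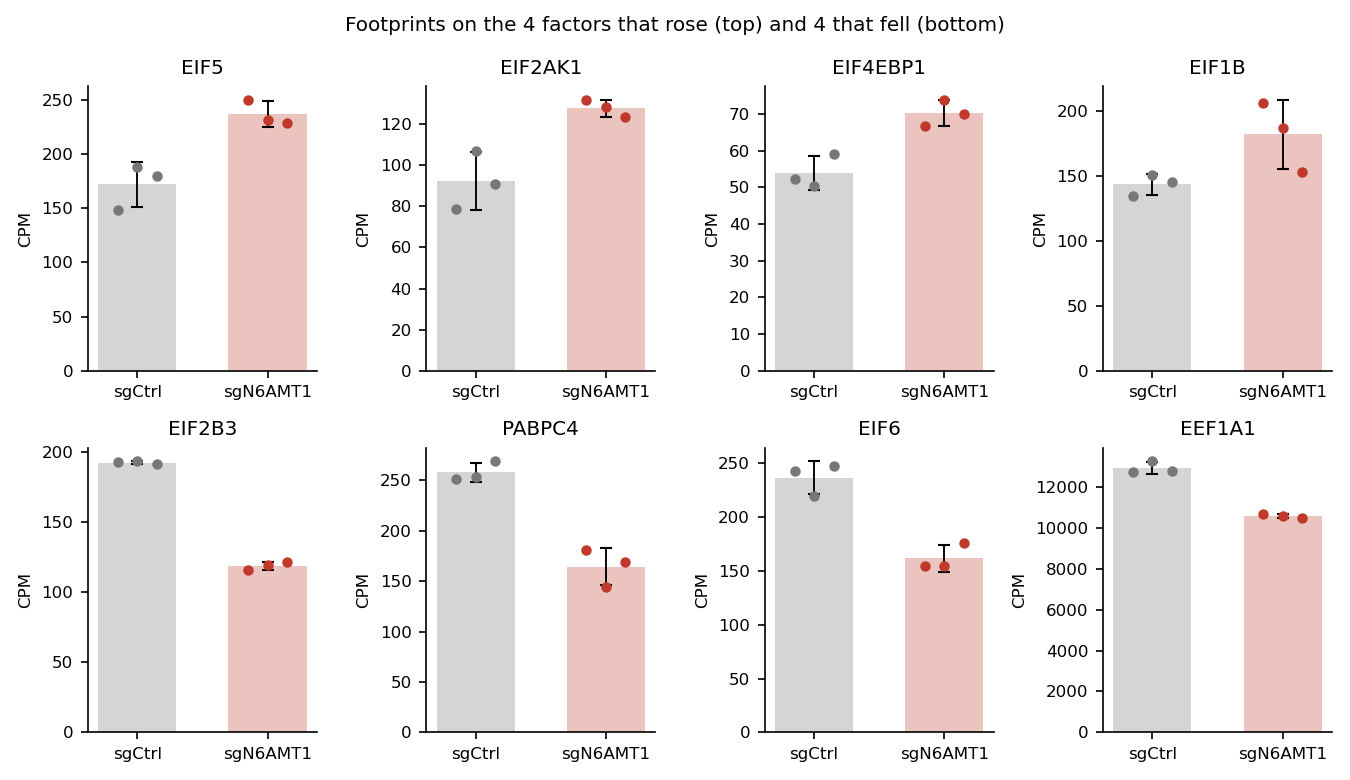
CPM (y axis, from 0, its own scale per panel) of the 4 factors that rose (top) and of EIF2B3, PABPC4, EIF6 and EEF1A1, which fell (bottom). Points are libraries, bars means and error bars SD (n = 3 per group); in each panel the points of the groups do not overlap.

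Among the EIF1 group, EIF1AX fell while EIF1B rose. EIF1AX, the EIF1A protein that works with EIF1 in scanning for the start codon, had 219, 248 and 223 CPM in sgCtrl and 183, 182 and 169 CPM in sgN6AMT1 (log2 fold change -0.37 ± 0.07, adjusted p = 9.72e-06). EIF1, the most abundant of the group, had 782, 808 and 834 CPM in sgCtrl and 901, 868 and 856 CPM in sgN6AMT1. Its sgN6AMT1 libraries were all the higher ones, yet the log2 fold change of 0.12 ± 0.05 did not pass (adjusted p = 0.0684). It passed when libraries were scaled by upper quartiles (adjusted p = 0.0417) or by total counts alone (0.00468), and with genes of under 50 mean counts removed (0.0183). The CDS of EIF1 and EIF1B were 82.2% identical and shared no stretch of 30 bases. EIF1AY, a near copy of EIF1AX, did not pass.

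In EIF2, the trimer that carries the initiator tRNA, the tRNA-binding subunit gene EIF2S3 fell. It had 675, 714 and 704 CPM in sgCtrl and 649, 573 and 550.5 CPM in sgN6AMT1, with all sgN6AMT1 libraries lower (log2 fold change -0.24 ± 0.05, adjusted p = 2.23e-04). EIF2S3L, a copy that shares 62.3% of its 30-base stretches with EIF2S3, had -0.18 (adjusted p = 0.0278) and overlapping groups, so reads could be split between the pair. The summed counts of both gave -0.22 (adjusted p = 2.56e-04). For EIF2S3L alone the call was lost in DESeq2 (adjusted p = 0.147) and without sgCtrl replicate 2 (0.255), sgN6AMT1 replicate 2 (0.174) or sgN6AMT1 replicate 3 (0.0763), among other settings. EIF2S1, whose protein carries the phosphorylated serine, had 319, 373 and 341 CPM in sgCtrl and 310.3, 314 and 320.3 CPM in sgN6AMT1. The groups overlapped and the log2 fold change of -0.14 ± 0.06 did not pass (adjusted p = 0.0827), although it did without sgCtrl replicate 1 (0.0238). EIF2S2 was at -0.05 (adjusted p = 0.635).

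EIF2B, the exchange factor that reloads EIF2, held the factor with the lowest log2 fold change. EIF2B3, the gamma subunit that forms the catalytic part together with EIF2B5, had 193, 193 and 191 CPM in sgCtrl and 116, 119 and 122 CPM in sgN6AMT1. Replicates of a group lay within a few CPM of each other, the groups were far apart, and the log2 fold change was -0.70 ± 0.08 (adjusted p = 1.43e-12), or 38.3% lower. Its listed transcript spans chr1:44850522-44986595 on the minus strand of GRCh38 in 12 exons, and none of its 30-base stretches occurs in another listed CDS. Of the 1282 genes that fell, 185 had a lower log2 fold change than EIF2B3.

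The other EIF2B subunits moved less. EIF2B1, the alpha subunit, had 107, 98.6 and 103 CPM in sgCtrl and 76.3, 82.1 and 91.2 CPM in sgN6AMT1 (log2 fold change -0.31 ± 0.10, adjusted p = 0.0109). That call was lost in DESeq2 (adjusted p = 0.0722) and without sgN6AMT1 replicate 1 (0.0844) or replicate 2 (0.0509). EIF2B5 had -0.19 (adjusted p = 0.0835, but 0.043 without sgN6AMT1 replicate 3). EIF2B4, the delta subunit, had 95.9, 82.7 and 81.3 CPM in sgCtrl and 76.3, 87.7 and 79.3 CPM in sgN6AMT1, with overlapping groups and a log2 fold change of -0.09 ± 0.10 (adjusted p = 0.57). EIF2B2 was at -0.07 (adjusted p = 0.71). Of all EIF2B footprints, EIF2B3 took 34.0% ± 0.9 in sgCtrl and 26.5% ± 0.6 in sgN6AMT1 (SD, n = 3), and EIF2B5 took 23.1% ± 0.4 and 25.5% ± 0.5.

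Of the 4 kinases that phosphorylate EIF2 only EIF2AK1 passed the test. EIF2AK2 (PKR), activated by double-stranded RNA, had 47.2, 41.4 and 42.9 CPM in sgCtrl and 40.8, 33.7 and 36.9 CPM in sgN6AMT1 (log2 fold change -0.23 ± 0.13, adjusted p = 0.196). EIF2AK4 (GCN2), the amino acid sensor, had 28.6, 22.8 and 23.2 CPM in sgCtrl and 21.9, 26.4 and 22.3 CPM in sgN6AMT1 (-0.06 ± 0.17, adjusted p = 0.835). EIF2AK3 (PERK), the kinase of the endoplasmic reticulum, had 8.54, 12.4 and 14.3 CPM in sgCtrl and 18.0, 8.21 and 15.2 CPM in sgN6AMT1 (0.21 ± 0.24, adjusted p = 0.575). EIF2AK1 was also the most heavily occupied of them per length, at 48.8 ± 7.4 CPM per kilobase of CDS in sgCtrl, followed by EIF2AK2 at 26.5 ± 1.8, EIF2AK4 at 5.02 ± 0.66 and EIF2AK3 at 3.51 ± 0.88 (SD, n = 3).

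EIF3, the scaffold of the small subunit during initiation, had log2 fold changes below 0 for all 14 listed genes, and 10 of them fell (71.4%). Across all genes tested 13.9% fell, and 32.0% of those with a mean of at least 100 CPM, a level that all 14 exceeded. EIF3B had 709.8, 715 and 664 CPM in sgCtrl and 548, 578 and 554 CPM in sgN6AMT1, with the groups well apart (log2 fold change -0.32 ± 0.05, adjusted p = 5.88e-07). EIF3K, a small subunit, had 603, 541 and 641 CPM in sgCtrl and 472, 491 and 466 CPM in sgN6AMT1 and had the lowest value of the complex, by a margin far under its error (-0.32 ± 0.06, adjusted p = 2.45e-06). EIF3L (-0.27, adjusted p = 1.54e-04), EIF3F (-0.25, 0.00193), EIF3A (-0.21, 0.00342), EIF3CL (-0.21, 0.00187), EIF3M (-0.20, 0.00141), EIF3E (-0.19, 0.00401), EIF3C (-0.17, 0.015) and EIF3H (-0.16, 0.0168) fell as well. EIF3I, the most abundant, had 965, 891 and 942 CPM in sgCtrl and 862, 900.4 and 889 CPM in sgN6AMT1 and did not pass (-0.08 ± 0.05, adjusted p = 0.255). EIF3D, EIF3G and EIF3J had values from -0.12 to -0.09 and adjusted p from 0.146 to 0.323.

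All 9 listed genes for the 8 subunits with PCI or MPN domains, which form the core of EIF3, were among those that fell, beside 32.0% of all genes with a mean of at least 100 CPM. Of the 5 genes for other subunits only EIF3B did, a grouping made after the values were seen and with no test of the difference. EIF3I and EIF3G passed once trends on CDS length and GC content were removed (adjusted p = 0.0168 and 0.0155). EIF3C and EIF3CL share over 99% of their 30-base stretches, so their reads cannot be assigned to either gene, and their sum gave -0.19 (adjusted p = 0.00128). Without sgN6AMT1 replicate 2 the calls of EIF3A (adjusted p = 0.0501), EIF3C (0.064), EIF3F (0.0605), EIF3H (0.132) and EIF3M (0.052) were lost. The call of EIF3E was lost without sgCtrl replicate 3 (adjusted p = 0.0515) or sgN6AMT1 replicate 3 (0.0859), that of EIF3C without sgCtrl replicate 1 (0.0603) or replicate 3 (0.0628), and that of EIF3H without sgCtrl replicate 2 (0.0577). DESeq2 gave 0.0588 for EIF3C and 0.0636 for EIF3H.

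The subunits of EIF3 differed in footprints per kilobase of CDS. In sgCtrl the order ran from EIF3I (963 ± 39 CPM per kilobase, SD, n = 3) through EIF3M (652 ± 22), EIF3E (590.4 ± 30.4), EIF3H (452 ± 8) and the summed EIF3C copies (385 ± 14) to EIF3L (201.5 ± 9.2). The highest was 4.78 times the lowest in sgCtrl and 5.47 times in sgN6AMT1. In sgCtrl the libraries of EIF3G (303 ± 5) overlapped those of EIF3J (287 ± 12), EIF3J those of EIF3B (285 ± 12), and EIF3D (209 ± 15) those of EIF3L, so these neighbors had no order beyond their spread. EIF3A, EIF3F and EIF3K had no annotated CDS match and no density.

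**Figure D4:**
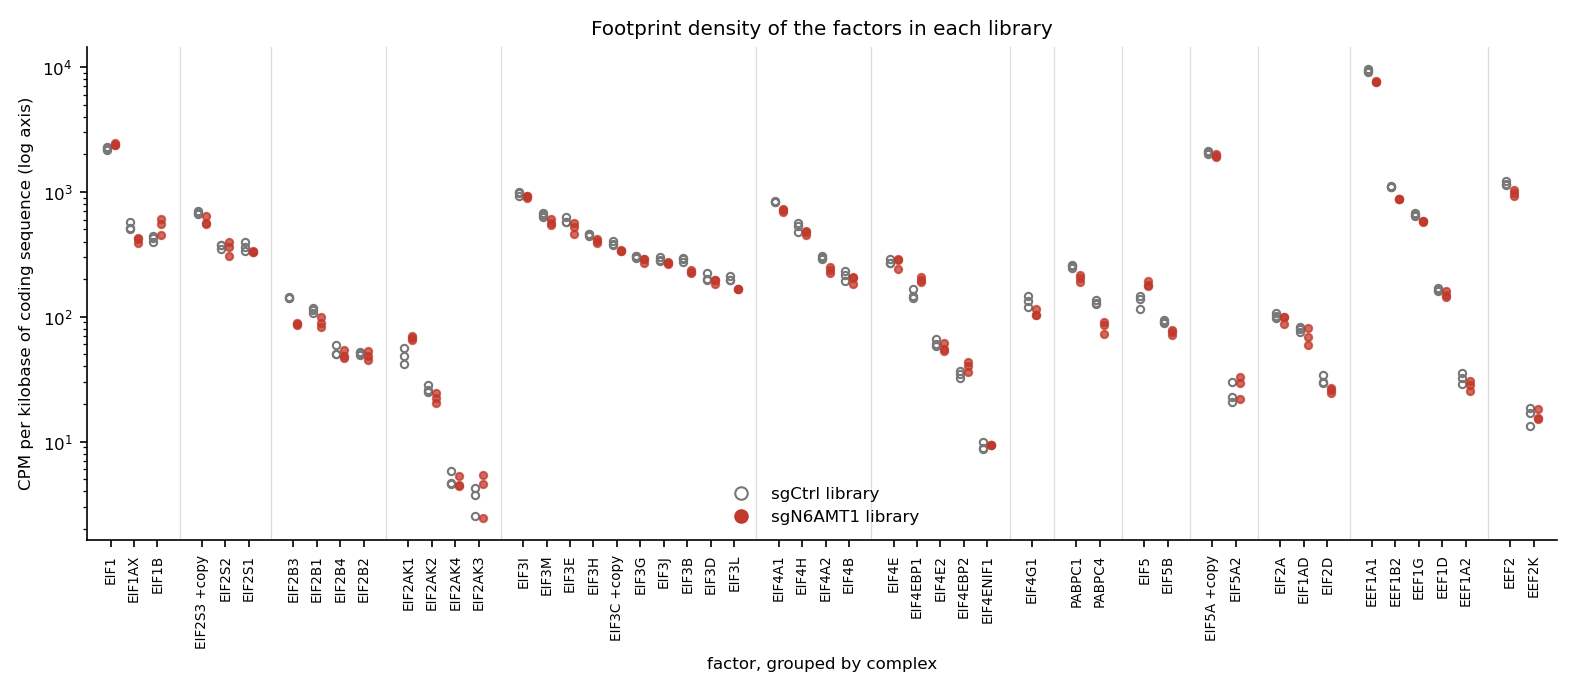
CPM per kilobase of CDS (y axis, log scale) of each factor with an annotated CDS, grouped by complex and ordered by the sgCtrl mean (x axis). Open circles are sgCtrl and filled circles sgN6AMT1 libraries, "+copy" marks a sum over near-identical copies, and EIF1AY is not drawn; EEF1A1 lies highest and EIF2AK3 and EIF2AK4 lowest.

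Of the factors that act at the mRNA cap, the helicase and scaffold genes fell and the cap-binding protein did not pass. EIF4A1, the main helicase that unwinds the 5′ leader, had 1023, 1003 and 1018 CPM in sgCtrl and 888, 842 and 871 CPM in sgN6AMT1 (log2 fold change -0.23 ± 0.05, adjusted p = 9.20e-05). Its paralog EIF4A2 had 373, 361 and 352 CPM in sgCtrl and 308, 288 and 276 CPM in sgN6AMT1 (-0.31 ± 0.06, adjusted p = 1.58e-05). Both showed no overlap between the groups. EIF4A3, the helicase of the exon junction complex, fell too (-0.26, adjusted p = 5.05e-04). EIF4G1, the scaffold that links the cap complex to EIF3 and to poly(A)-binding protein, had 704, 642 and 579 CPM in sgCtrl and 498, 494 and 559.7 CPM in sgN6AMT1 (-0.31 ± 0.06, adjusted p = 5.50e-06).

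EIF4E had 201, 199 and 215 CPM in sgCtrl and 214, 213 and 178 CPM in sgN6AMT1, with overlapping groups and a log2 fold change of -0.02 ± 0.07 (adjusted p = 0.901). EIF4E2, a cap-binding relative linked to repression, was at -0.11, EIF4ENIF1, the EIF4E transporter, at 0.04 and EIF4EBP2 at 0.20, with adjusted p from 0.556 to 0.886. EIF4H, a helicase cofactor, sat at the threshold (-0.15, adjusted p = 0.0493, groups overlapping). The EIF4H call was lost in 10 of 16 alternatives, among them the fits without sgCtrl replicate 1 (adjusted p = 0.293), sgCtrl replicate 2 (0.126), sgN6AMT1 replicate 1 (0.178) and sgN6AMT1 replicate 2 (0.0999). EIF4B, the other cofactor, was at -0.10 (adjusted p = 0.236).

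Both poly(A)-binding protein genes fell, and their ratio changed. PABPC4, the inducible form, had 252, 253 and 269.2 CPM in sgCtrl and 181, 144 and 169 CPM in sgN6AMT1, with no overlap and a log2 fold change of -0.65 ± 0.07 (adjusted p = 8.16e-13). PABPC1, the main form, had 492, 490.2 and 464 CPM in sgCtrl and 409.8, 393 and 363 CPM in sgN6AMT1 (-0.31 ± 0.06, adjusted p = 5.59e-06). PABPC3, an intronless copy that shares 25.1% of the 30-base stretches of PABPC1, had -0.40 ± 0.11 (adjusted p = 0.00216), and the sum of both gave -0.32 (adjusted p = 9.70e-07). The ratio of PABPC4 to PABPC1 counts was 0.51, 0.52 and 0.58 in sgCtrl and 0.44, 0.37 and 0.47 in sgN6AMT1, without overlap between the groups.

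The other paralog ratios overlapped. EIF4A2 to EIF4A1 was 0.36 ± 0.01 in sgCtrl and 0.34 ± 0.02 in sgN6AMT1, EIF4E2 to EIF4E 0.22 ± 0.004 and 0.21 ± 0.02 (SD, n = 3). EIF5A2 to EIF5A was 0.015 ± 0.003 and 0.019 ± 0.003, and EEF1A2 to EEF1A1 was 0.0035 ± 0.0004 and 0.0037 ± 0.0003. These ratios are taken within a library and do not depend on how libraries were scaled.

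Of the late initiation factors, EIF5B fell while EIF5 rose. EIF5B, the GTPase that joins the subunits, had 331, 345 and 326 CPM in sgCtrl and 263, 273 and 286 CPM in sgN6AMT1 (log2 fold change -0.29 ± 0.06, adjusted p = 8.69e-05, and 0.0502 with trends on CDS length and GC content removed). EIF6, which keeps free large subunits from joining, had 243, 219 and 248 CPM in sgCtrl and 154, 155 and 176 CPM in sgN6AMT1. Its groups were far apart, and the log2 fold change was -0.55 ± 0.07 (adjusted p = 6.93e-10). EIF2D (-0.27), EIF1AD (-0.21) and EIF2A (-0.08) did not pass, with adjusted p from 0.0825 to 0.433.

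EIF5A, the hypusine-containing factor that helps ribosomes through difficult peptide bonds, had 709.8, 733 and 767 CPM in sgCtrl and 689, 712 and 682 CPM in sgN6AMT1. The groups overlapped, and the log2 fold change was -0.08 ± 0.05 (adjusted p = 0.219). Its copy EIF5AL1 was at -0.13 (adjusted p = 0.0909) and the sum of both at -0.10 (adjusted p = 0.105). With trends on CDS length and GC content removed, EIF5A (-0.16, adjusted p = 0.00882) and EIF5AL1 (-0.21, adjusted p = 0.00328) both passed. EIF5A2 was at 0.16 (adjusted p = 0.67).

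Of the elongation factors, 3 of 5 EEF1 genes and EEF2 fell, and EEF1A1 and EEF2 had the highest mean CPM of all factors. With EEF2K included that is 57.1% of 7 genes, beside 13.9% of all genes tested and 32.0% of those with a mean of at least 100 CPM. EEF1A1, which delivers aminoacyl-tRNA, had 12728, 13257 and 12794 CPM in sgCtrl and 10689, 10577 and 10465 CPM in sgN6AMT1. The groups were far apart relative to their spread, and the log2 fold change was -0.29 ± 0.04 (adjusted p = 4.41e-10), or 18.2% lower. EEF2, the translocase, had 3126, 2960 and 2929 CPM in sgCtrl and 2368, 2535 and 2677 CPM in sgN6AMT1 (-0.25 ± 0.04, adjusted p = 1.77e-06). EEF1B2, a nucleotide exchange subunit for EEF1A, had 744, 758 and 735 CPM in sgCtrl and 593, 588 and 594 CPM in sgN6AMT1 (-0.34 ± 0.05, adjusted p = 6.55e-08). EEF1G, its scaffold subunit, fell by 0.18 on the log2 scale (adjusted p = 0.00309).

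The exchange subunit EEF1D was at -0.13 (adjusted p = 0.105, but 0.0284 without sgN6AMT1 replicate 1). EEF1A2, the muscle and neuron paralog, was at -0.17 (adjusted p = 0.339) and had 32.2 ± 3.2 CPM per kilobase in sgCtrl, where EEF1A1 had 9326 ± 208. EEF2K, the kinase that inhibits EEF2, had 40.2, 36.5 and 29.1 CPM in sgCtrl and 33.3, 39.7 and 33.1 CPM in sgN6AMT1, with overlapping groups and a log2 fold change of 0.01 ± 0.14 (adjusted p = 0.984). Per kilobase of CDS, EEF1A1 was the highest factor in sgCtrl, followed by EIF1 (2225 ± 72 CPM per kilobase), EIF5A with its copy (2086 ± 58) and EEF2 (1167 ± 41). The EIF5A sum was divided by the 558 bases of the listed EIF5A CDS, while that of EIF5AL1 has 462. The order of EIF1 and EIF5A therefore depends on the isoform listed.

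Of 10 factors commonly described as TOP mRNAs, 8 fell, namely EEF1A1, EEF1B2, EEF1G, EEF2, EIF3E, EIF3F, EIF3H and PABPC1. The 10 were listed with earlier results of these data known. Across all genes tested 13.9% fell, and 32.0% of those with a mean of at least 100 CPM, a level that all 10 exceeded. EEF1D and EIF4B did not pass, and all 10 log2 fold changes were below 0, with a median of -0.22. Of the 50 other tested factors, 20 fell and 4 rose, with a median of -0.16. Grouped by the annotated start instead, 8 of the 12 factors with a pyrimidine run fell and none rose (median -0.25), while of 34 tested factors with a RefSeq start and no run 12 fell and 2 rose (median -0.13). Factors without a RefSeq start here are in neither group. Among them are EIF2AK1 and EIF4EBP1, which rose, and the TOP factors EEF1D, EIF3E, EIF3H and PABPC1. Whether these groups differ was not tested, and genes of the groups differ in level. The median of the mean CPM was 569 for the TOP factors and 208 for the others, and 458 with a run and 201 without.

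Regulators and cofactors of the pathway, listed by role but with earlier results of these data known, came to 53 tested genes. Of these, 11 fell (20.8%) and 3 rose (5.66%), beside 13.9% and 12.9% of all genes, a description and not a test. Of 13 tested mTORC1 and cap-complex regulators, MTOR, the kinase itself, fell (log2 fold change -0.30, adjusted p = 0.00425) and MKNK2, which phosphorylates EIF4E, rose (0.64, adjusted p = 0.00167), and the other 11 did not pass. MTOR had 142, 136 and 133 CPM in sgCtrl and 113, 105 and 117 CPM in sgN6AMT1. MKNK2 had 22.6, 21.7 and 15.8 CPM in sgCtrl and 34.6, 29.4 and 30.4 CPM in sgN6AMT1, with all sgN6AMT1 libraries higher. The MTOR call was lost without sgN6AMT1 replicate 2 (adjusted p = 0.0557).

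Of 9 tested genes around EIF2 phosphorylation, 2 fell and 2 rose (22.2% each, beside 13.9% and 12.9% of all genes). PPP1R15A (GADD34), which recruits a phosphatase to EIF2, fell (log2 fold change -0.61, adjusted p = 0.0168), and ATF4, whose translation increases when EIF2 is phosphorylated, rose (0.53, adjusted p = 0.00414). The kinase inhibitor DNAJC3 rose (0.38, adjusted p = 0.0197) and the EIF2AK4 activator GCN1 fell (-0.17, adjusted p = 0.0222). In DESeq2 none of these 4 passed, with adjusted p of 0.108 for PPP1R15A, 0.06 for ATF4, 0.152 for DNAJC3 and 0.0986 for GCN1. ATF4 had 22.1, 29.3 and 25.1 CPM in sgCtrl and 39.0, 39.3 and 33.1 CPM in sgN6AMT1, with no overlap. Calls were also lost with 1 library left out, for PPP1R15A without sgCtrl replicate 1 (adjusted p = 0.0591), sgCtrl replicate 3 (0.0951) or sgN6AMT1 replicate 3 (0.0782), and for DNAJC3 without sgCtrl replicate 2 (0.104) or sgN6AMT1 replicate 2 (0.154). For GCN1 the same held without sgCtrl replicate 1 (0.0749), sgN6AMT1 replicate 1 (0.139) or sgN6AMT1 replicate 2 (0.0955), with total counts alone (0.143) and with genes of under 50 mean counts removed (0.0538). With trends on CDS length and GC content removed, GCN1 was at -0.07 (adjusted p = 0.378).

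Of 11 tested initiation cofactors, 3 fell: the helicase DDX3X (log2 fold change -0.36, adjusted p = 7.78e-08), the ribosome recycling factor ABCE1 (-0.23, 0.00112) and ABCF1 (-0.22, 0.00276). Of 14 enzymes that modify EEF1A, EEF2 or EIF5A, DOHH, which completes hypusine on EIF5A, fell (-0.65, adjusted p = 8.83e-04), as did METTL13, a methyltransferase of EEF1A (-0.36, 0.00322). DOHH had 40.7, 31.0 and 37.5 CPM in sgCtrl and 19.7, 20.7 and 29.3 CPM in sgN6AMT1. The last list held 6 tested genes named for or related to elongation factors or poly(A)-binding proteins. Of these, VARS, the valyl-tRNA synthetase bound to EEF1 (-0.44, adjusted p = 2.05e-10), PABPC3, which could share reads with PABPC1, and EEF1E1 (-0.23, adjusted p = 0.0245) fell. The EEF1E1 call was lost in DESeq2 (adjusted p = 0.125) and without sgCtrl replicate 2 (0.0612), sgCtrl replicate 3 (0.141), sgN6AMT1 replicate 2 (0.0706) or sgN6AMT1 replicate 3 (0.107). The METTL13 call was lost without sgCtrl replicate 1 (adjusted p = 0.062) and that of PABPC3 without sgN6AMT1 replicate 2 (0.0545). None of the genes in the last 3 lists rose, beside 12.9% of all genes. Shares that fell were 27.3% of the initiation cofactors, 14.3% of the enzymes and 50% of the 6 genes of the last list, beside 13.9% of all genes.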

How the data were processed

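Deposited values were whole-number footprint counts per gene in 6 libraries. Before deposit the authors used cutadapt for adapter removal, a length selection for footprints, HISAT2 on GRCh38 to discard rRNA and tRNA, and Bowtie2 on canonical transcripts. Versions are not given in the sources used here, nor is whether the table holds ribosomal P-sites per CDS or overlaps with a gene annotation. Without molecular identifiers, counting error understates the true error. Library totals ranged from 1821356 to 2969736.

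Groups were taken from the labels. Counts were fitted with edgeR 4.0.16 in R 4.3.3 (TMM factors, filterByExpr at 10 counts, 9202 genes kept, robust quasi-likelihood F test, 2-sided, Benjamini-Hochberg over all genes, threshold 0.05). The 10128 genes removed held 0.465% of counts. CPM use TMM-adjusted library sizes, except the CPM of cell markers, which use total counts. SE is derived from the F statistic. Alternatives were DESeq2 1.42.0, voom in limma 3.58.1, RLE and upper-quartile factors, total counts alone, no filter, a mean of at least 50 counts, the replicate block, each library left out, and loess removal (span 0.5) of trends with GC content and CDS length. Summing near-identical copies was chosen after seeing the data. The fits were tested on simulated data. Not every listed cell marker is reported here.

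CDS lengths and contexts came from GENCODE release 44 by transcript identifier, which matched 57 of 63 factors (20 with the same version), and start sequences from RefSeq (GRCh38.p14, 49 factors matched). EIF2B5, EIF3A, EIF3F, EIF3K, EIF4A3 and EIF6 had no match in GENCODE. The factors and gene lists were chosen with earlier results of these data known. Full values are given, in each complex, for the called factor with the largest absolute log2 fold change and the most abundant factor, and for preset factors; other factors by fold and p, and up to 3 called genes per list.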

Additional observations from a re-analysis of the deposited data

How the results depend on the processing

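None of the 32 called factors changed sign in any of 16 alternatives, and 21 of them (18 lower, 3 higher) passed in every alternative they entered. The counts ranged from 20 to 28 lower and from 3 to 5 higher. Leaving out each library in turn gave 20 to 27 lower and 3 to 4 higher, with a median of -0.18 to -0.16, and the lowest count came without sgN6AMT1 replicate 2. Scaling by total counts alone moved the median to -0.12, while the median of all genes moved to 0.06. Removing EEF1A1, EEF1A2, EEF1G and EEF2 left a share of counts of 1.785% in sgCtrl and 1.638% in sgN6AMT1.

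Uncalled factors near 0 changed sign. EEF2K gave -0.0034 without the filter and -0.00082 with CDS length and GC trends removed, where EIF2AK4 gave 0.011 and EIF4E 0.00022. EIF4E gave 0.039 with total counts and 0.0103 with a mean of at least 50 counts, and EIF2S2 gave 0.0081 with total counts. With 1 library left out, values ranged from -0.103 to 0.0883 for EEF2K, from -0.0616 to 0.495 for EIF2AK3, from -0.158 to 0.0384 for EIF2AK4, from -0.14 to 0.0423 for EIF2S2 and from -0.0609 to 0.0559 for EIF4E.

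Same-numbered libraries did not deviate together (correlations of deviations of -0.061, 0.02 and 0.016). That gave no sign of pairing by number, but counting noise in the deviations could hide one. With the replicate number as a block, 27 factors were lower and 4 higher, and the only call lost was that of EIF4H. Depth limits factors with few footprints, and for example EIF2AK3, EIF4EBP2 and EIF5A2 had means of 12 to 14 CPM and SE of 0.22 to 0.24.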
